A study of Arabidopsis thaliana with 18 samples.

Results

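A single probe set, 248163_at, met the rule for transcripts raised by SA in both the first and the second run of arrays, out of 11967 probe sets bright enough to be considered. The rule asked for an SA minus silwet difference of at least 0.7 in the first pair of runs and at least 0.4 in the second, on the scale log2(signal + 16), for probe sets whose signal averaged at least 30 over the 18 arrays. It left out UGT76B1 (256252_at) and 265067_at by name. Of these, UGT76B1 also met both thresholds, while 265067_at did not. The probe set 248163_at is not named by the annotation used here, so neither a gene nor a function is given for it. The data therefore do not bear out a group of genes held up by SA into the second run. What follows describes the 1 member, the probe sets at the edge of the rule and the transcripts that met its first limit.

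The arrays measured total RNA of the Arabidopsis thaliana accession Est, hybridised as biotin-labelled target to Affymetrix ATH1 arrays, on which several short probes per transcript are combined into 1 signal. The 9 SA arrays carried RNA of plants given 0.3 mM SA in a 0.02% solution of silwet, a wetting agent. The 9 silwet arrays carried RNA of plants given that 0.02% solution alone, so silwet is shared by all 18. In the order of the numbers in their titles each treatment splits into 3 runs of replicates 1, 2 and 3. The pairs compared are SA titles 46 to 48 with silwet titles 37 to 39 (the first pair), SA 49 to 51 with silwet 40 to 42 (the second), and SA 52 to 54 with silwet 43 to 45 (the third). The labels do not say what separates the runs, how SA and silwet runs correspond, or whether arrays stem from separate plants. The p-values then reflect only how much these samples scatter, part of which may be technical. The sources used here name neither a tissue nor a harvest time. The median signal per array was between 27.4 and 35.7.

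Salicylic acid (SA) is a plant hormone that builds up when leaves meet biotrophic pathogens. It is perceived by NPR proteins, which work with TGA transcription factors to switch on defence genes, among them WRKY factors and glutaredoxins. Genes of the secretory pathway, among them chaperones of the endoplasmic reticulum, also respond to SA. Plants also limit the hormone, for example by attaching glucose to it with UDP-glycosyltransferases such as UGT76B1, and many SA-responsive transcripts are known to rise only for a time.

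The member 248163_at was a transcript of modest signal (mean 84.0 over 18 arrays) whose differences lay close to the rule's limits. In the first pair its levels were 7.52, 7.35 and 6.61 on SA titles 46, 47 and 48, against 6.56, 6.74 and 6.06 on silwet titles 37, 38 and 39 (log2). The SA arrays read higher within each replicate number, by 0.97, 0.62 and 0.56, but the groups overlapped, since SA title 48 lay below silwet title 38. The difference of means was 0.71, just inside the limit. In the second pair the levels were 6.57, 6.68 and 5.98 on SA titles 49, 50 and 51, against 5.52, 5.72 and 6.28 on silwet titles 40, 41 and 42. Here replicates 1 and 2 were higher with SA by 1.04 and 0.96, replicate 3 had a difference of -0.30, and the groups overlapped again. In this pair same-numbered arrays did not all deviate together (correlations across probe sets of 0.37, 0.00 and -0.11). The differences by replicate number therefore need not join matched arrays. The difference of means was 0.57. The member was selected on these 2 differences, which are therefore given as a description, with no test.

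The third pair was contrasted nowhere in the rule, and in it 248163_at did not differ detectably. Its levels were 7.20, 6.21 and 6.71 on SA titles 52, 53 and 54, against 7.30, 6.37 and 6.37 on silwet titles 43, 44 and 45. The highest value of each treatment came from replicate 1, and the groups overlapped over most of their range. The difference was 0.02 with a standard error of 0.32 and a 95% interval from -0.66 to 0.71 (limma adjusted p = 0.990). The upper bound lies above the second-pair difference and close to that of the first pair. With 3 arrays a group, a rise of the size seen in the second pair is therefore not excluded. In that limma fit 0 of 11967 probe sets passed an adjusted p of 0.05 in the third pair, in either direction (0%), and 821 (6.86%) had an unadjusted p under 0.05. Over all probe sets tested the median third-pair difference was -0.03.

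Ordered by mean level, the 6 runs placed 248163_at at 7.16 ± 0.48 in SA titles 46 to 48, then 6.71 ± 0.50 in SA titles 52 to 54 and 6.68 ± 0.54 in silwet titles 43 to 45. Next came silwet titles 37 to 39 with 6.45 ± 0.35, SA titles 49 to 51 with 6.41 ± 0.38 and silwet titles 40 to 42 with 5.84 ± 0.39 (SD, n = 3 each). Neighbours in this order lay 0.46, 0.02, 0.23, 0.04 and 0.57 apart. The first 4 gaps were smaller than the SDs of the runs they separate, and the last is the second-pair difference, on which the member was selected. The mean of SA titles 49 to 51 lay below the means of the other silwet runs. The SD within runs, pooled over the 6 runs, was 0.45 for this probe set, larger than for 91.2% of the probe sets tested, whose median was 0.25. Replicate numbers did not differ detectably at 248163_at (limma F-test on all 18 arrays with title run in the model, adjusted p = 0.264), whereas 1730 of the probe sets tested (14.5%) passed that test.

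**Figure D1:**
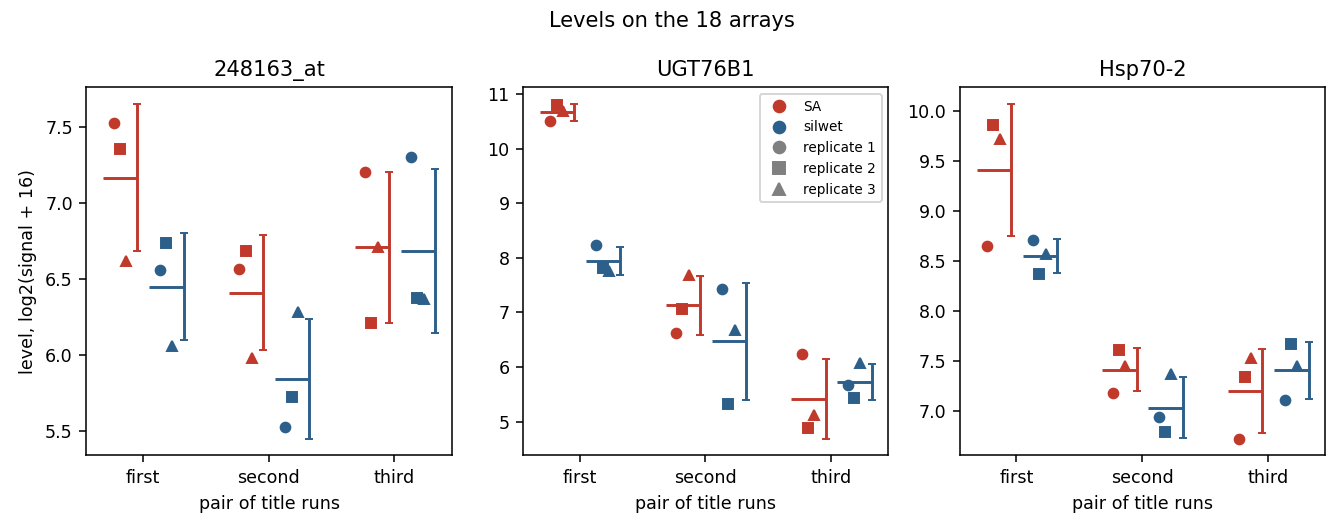
Levels, as log2(signal + 16), of 248163_at, UGT76B1 and Hsp70-2 on the 18 arrays, with SA in red to the left of silwet in blue in each pair of title runs. Marker shapes are replicate numbers, horizontal lines are means and bars are the SD of 3 arrays, and the vertical axes differ between panels. For 248163_at the groups overlap in all 3 pairs, whereas the first-pair groups of UGT76B1 do not.

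Membership of 248163_at changed when a replicate number was left out, which removes 1 SA and 1 silwet array from each pair. Without replicate 1 its first- and second-pair differences were 0.59 and 0.33, both under the limits, and without replicate 2 they were 0.76 and 0.37, the second of which misses. Without replicate 3 they were 0.79 and 1.0. The rule itself then picked 12, 2 and 11 probe sets without replicate 1, 2 and 3, and 248163_at was among them only without replicate 3.

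UGT76B1 (AT3G11340), which glucosylates SA and isoleucic acid, was the other probe set past both limits. Its second-pair levels were 6.63, 7.06 and 7.70 on SA titles 49 to 51, against 7.43, 5.32 and 6.68 on silwet titles 40 to 42. Silwet title 41 was lowest, and silwet title 40 stood above 2 of the 3 SA arrays, so the groups overlapped. The difference of means was 0.65, but it was 0.11 without replicate 2 and 1.38 without replicate 1. In the third pair UGT76B1 read 6.24, 4.89 and 5.11 with SA, against 5.67, 5.43 and 6.08 with silwet, and differed by -0.31 (standard error 0.43, limma adjusted p = 0.873). The other probe set the rule leaves out, 265067_at, had differences of 2.19, -0.22 and 0.05 in the 3 pairs, in order.

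Just outside the rule on the second-pair side stood Hsp70-2 (250994_at, AT5G02490), a chaperone of the heat shock 70 family, with differences of 0.86 in the first pair and 0.38 in the second. Its second-pair levels were 7.18, 7.60 and 7.45 on SA titles 49 to 51, against 6.94, 6.78 and 7.37 on silwet titles 40 to 42. Each SA array was above the silwet array of the same number, by 0.24, 0.82 and 0.08, yet SA title 49 lay below silwet title 42. Its first-pair levels were 8.65, 9.86 and 9.72 on SA titles 46 to 48, against 8.71, 8.37 and 8.57 on silwet titles 37 to 39, where replicate 1 had a difference of -0.06. In the third pair the levels were 6.72, 7.34 and 7.53 with SA, against 7.10, 7.67 and 7.44 with silwet. The third-pair difference was -0.21, with a 95% interval from -0.81 to 0.38.

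The unnamed 254215_at came next, with differences of 0.90, 0.34 and -0.47 in the 3 pairs. UGT73D1 (251970_at, AT3G53150), a UDP-glycosyltransferase family member, had 1.29, 0.33 and -0.54, and was chosen for naming once its values were known. Among probe sets with a first-pair difference of at least 0.7, it was the 1 whose second-pair SA arrays all lay above the silwet arrays. Over all probe sets tested the share with that separation was 6.06%. The second-pair levels of UGT73D1 were 5.81, 5.69 and 5.71 on SA titles 49 to 51, against 5.43, 5.27 and 5.52 on silwet titles 40 to 42. It was rather dim (mean signal 60.6), and its first-pair groups overlapped, with SA title 46 at 6.73 and silwet title 39 at 7.11. On the first-pair side the nearest were the unnamed 251984_at and 261895_at, with first-pair differences of 0.69 and 0.62 and second-pair differences of 0.53 and 0.60. Their third-pair differences were -0.11 and -0.18. The largest first-pair difference of all, 3.09, belonged to the unnamed 245035_at, whose later differences were 0.32 and -0.30.

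**Figure D2:**
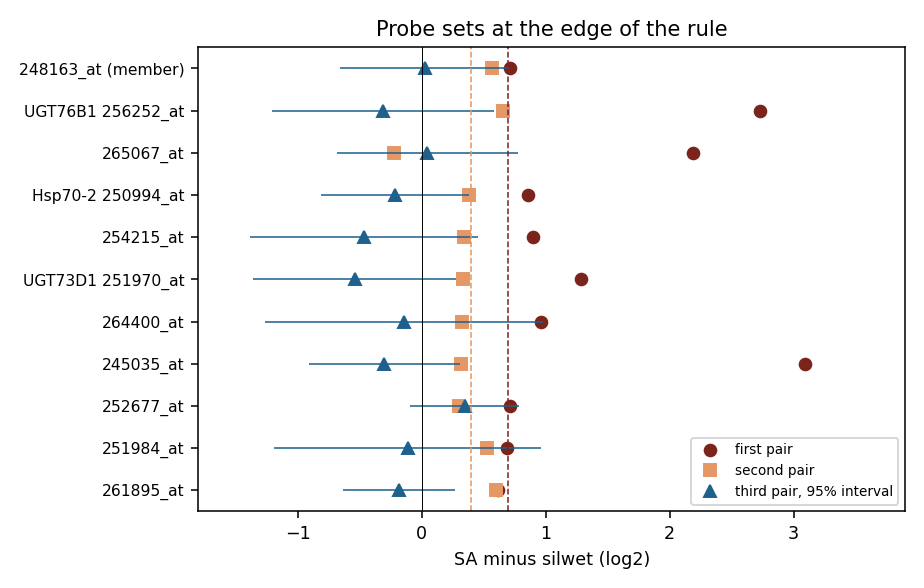
SA minus silwet differences (log2, horizontal axis) of the member, the 2 probe sets the rule leaves out and the 8 nearest to its limits, with circles for the first pair, squares for the second and triangles for the third. Blue lines are 95% intervals of the third-pair difference and dashed lines the limits 0.4 and 0.7. The third-pair interval of each probe set shown includes 0.

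The rule left so few probe sets because its limits were rarely met together. A first-pair difference of at least 0.7 was found at 387 probe sets (3.23%), and a second-pair difference of at least 0.4 at 764 (6.38%). Among the 387 the second limit was passed by 2, or 0.517%, below the share over all probe sets. Among the 764 the first limit was passed by the same 2, or 0.262%. The 764 had a median first-pair difference of -0.46, with quartiles of -0.70 and -0.22. Over all probe sets tested that median was -0.06, with quartiles of -0.27 and 0.15. Across all 11967 probe sets the Pearson correlation of the first- and second-pair differences was -0.51, and that of the first- and third-pair differences -0.17. These pairs share no arrays, but they do share the probe sets, which are not independent replicates.

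**Figure D3:**
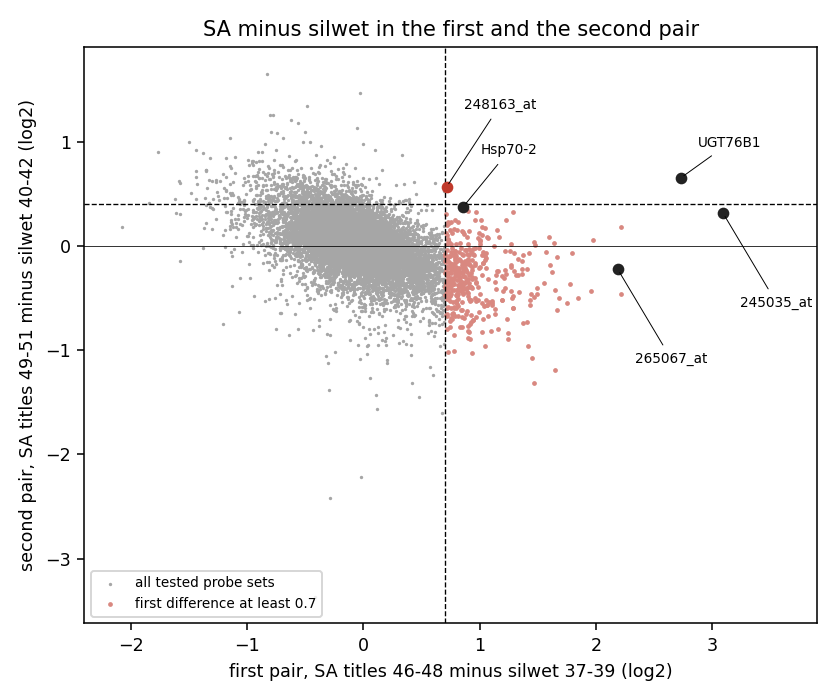
SA minus silwet in the second pair (vertical axis) against the first pair (horizontal axis), both log2, with 1 point per probe set. Dashed lines are the limits 0.7 and 0.4, and pale red points are the 387 probe sets past the first of them. The upper right part holds only 248163_at and UGT76B1.

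The transcripts raised in the first pair tended to read lower with SA than with silwet in the later pairs. Their second-pair differences, which played no part in choosing the 387, had a median of -0.29 with quartiles of -0.49 and -0.11, beside a median of 0.03 over all probe sets tested. The difference was above 0 for 56 of the 387 (14.5%), against 55.2% of all. Of the 387, 138 (35.7%) had a second-pair difference of -0.4 or less, against 5.23% of all probe sets. All 3 SA arrays lay below all 3 silwet arrays for 98 of the 387 (25.3%), where the share over all probe sets was 4.86%, and all 3 lay above for 1, where that share was 6.06%. In limma 0 of the 387 passed in the second pair in either direction, as did 0 of all 11967 (6.97% of which had an unadjusted p under 0.05), with 0 higher and 93 lower among the 387 at an unadjusted p under 0.05. The median stayed between -0.36 and -0.20 in the 8 other settings that can move it, which are offsets, quantile normalization, the filter at 60, array weights and each replicate number left out, although fewer than 387 probe sets entered under quantile normalization and, with 321, the filter at 60. The mean level of SA titles 49 to 51 exceeded the means of all 3 silwet runs for 7 of the 387 (1.81%), against 23.9% of all probe sets. For 277 of them (71.6%) silwet titles 37 to 39, a run used in choosing them, had the highest mean of the silwet runs, against 40.1% of all.

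In the third pair the shift was in the same direction and smaller. The median difference of the 387 was -0.18, beside -0.03 over all probe sets, and 78 of them (20.2%) had a difference of -0.4 or less, against 9.32% of all. A difference of at least 0.4 was found for 8 of them (2.07%), against 2.87% of all. The 3 SA arrays were all below the silwet arrays for 53 of the 387 (13.7%), where the share over all was 8.36%, and all above for 5 (1.29%), where it was 4.3%. Of the 387, 0 passed in limma, with 1 higher and 38 lower at an unadjusted p under 0.05. In RNA of whole samples, fewer cells of a type and less RNA per cell cannot be told apart. The part that the difference between silwet runs plays in these shifts was not tested.

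**Figure D4:**
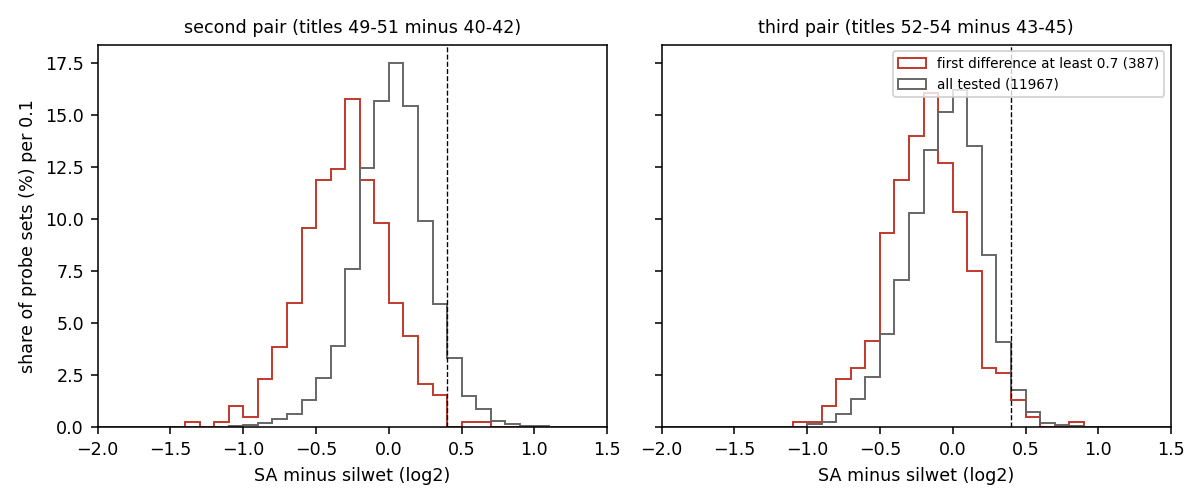
Distribution of SA minus silwet differences (log2, horizontal axis) in the second pair (left) and the third pair (right), as the share of probe sets in bins 0.1 wide. The 387 probe sets with a first difference of at least 0.7 (red) are centred lower than all tested probe sets (grey), with medians of -0.29 and 0.03 in the second pair and -0.18 and -0.03 in the third, and the dashed line marks 0.4.

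Of 111 loci on 6 lists of defence-related genes, 15 were named and bright enough to be tested. The member is unnamed in the annotation used here, so whether it belongs to a list could not be decided. A first-pair difference of at least 0.7 was found for 5 of the 15, against 3.23% of all probe sets tested. The lists were chosen with earlier results of these data known, so that count is a description only. Of these 5, UGT76B1 alone had a second-pair difference of at least 0.4. In the SA signalling list 3 of 31 loci were tested, and no other had a probe set named for it alone in the annotation used here. Loci left untested for lack of a name are not thereby shown to be dim. GRX480, a TGA-binding glutaredoxin, had differences of 1.28, -0.50 and -0.16 in the 3 pairs, and SAG101, a lipase-like partner of the immune regulator EDS1, had 0.48, -0.24 and -0.25. Among WRKY factors 2 of 11 were tested. WRKY53, a regulator of leaf senescence, had 1.49, -0.46 and -0.34, and WRKY6 had 0.62, -0.27 and 0.32.

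The list of endoplasmic reticulum genes, with 4 of 14 loci tested, had a median difference of -0.41 in the second pair and -0.50 in the third. Over all probe sets tested these medians were 0.03 and -0.03. ERDJ3B (given as ATERDJ3B in the gene table), a partner of the chaperone BiP, read 8.75, 8.77 and 9.26 on SA titles 49 to 51, against 9.58, 9.46 and 9.86 on silwet titles 40 to 42. In the third pair it read 9.32, 8.47 and 9.19 with SA, against 9.80, 9.56 and 9.79 with silwet. The groups were separate in both pairs, with SA lower, whereas in the first pair all SA arrays were higher, a sequence of the first and second pair found at 2.23% of all probe sets. Its later differences were -0.70 and -0.72, with a standard error of 0.23 each, and neither passed in limma (adjusted p = 0.489 and 0.714). The calreticulin gene CRT1b had -0.32 and -0.72, and BZIP60, a transcription factor of the unfolded protein response, had -0.50 and 0.09. AT2G34250, also on the list, had -0.18 and -0.28. ERDJ3B and CRT1b also differed between replicate numbers (limma F-test, adjusted p = 0.030 and 0.022).

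Other lists held few tested genes. Of 25 detoxification loci 5 were named and 2 were tested. The glycosyltransferase gene UGT73B5 had differences of 0.70, -0.39 and -0.11, and the glutathione transferase gene GSTU20 had -0.45, 0.28 and 0.40. Of 18 receptor and pattern-response loci 2 were tested. The kinase gene BIK1 had 0.38, 0.11 and -0.07, and EFR, the receptor of a bacterial elongation factor, had 0.24, -0.39 and -0.18. Of 12 jasmonate and ethylene loci 4 were named and 2 were tested. The defensin gene PDF1.2 had differences of -0.42, -3.37 and -0.09, and PDF1.2b had -0.28, -2.42 and -0.02. The standard errors in the second pair were 0.99 and 0.77, and the pooled SDs within runs 1.43 and 1.11. Silwet titles 40 to 42 had the highest mean of all runs for both genes. For PDF1.2 that mean was 10.24, against 7.11 and 7.88 in the other silwet runs. Its SA means were 6.69, 6.87 and 7.78 in title order. None of the 15 genes passed in limma in the second or the third pair. Of 9 markers of photosynthesis, root hairs and senescence 3 were tested, and 0 of them passed in limma in the second or the third pair. The light-harvesting gene LHCB4.2 had differences of -0.24, -0.30 and -0.08 in the 3 pairs. The Calvin cycle gene PRK had -0.57, 0.13 and -0.04, with all 3 SA arrays below the silwet arrays in the first pair. The senescence marker SAG29 had 0.31, -0.93 and 0.95, with a standard error of 0.40 in the second and the third pair. The pooled SD within runs was 0.56 for SAG29, and its first-pair levels were very low, from 4.32 to 4.93. SAG29 also differed between runs of the same treatment, with silwet means of 4.46, 7.58 and 6.22 and SA means of 4.77, 6.65 and 7.18 in title order.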

How the data were processed

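Each array's deposited column holds a linear intensity for each probe set, which the authors computed with MAS5 according to the submitters' processing notes. Version and settings are not stated in the sources used here. Since MAS5 brings arrays to a common level, shifts in total RNA are invisible, and dim probe sets vary most. The signals were not rescaled. Of 22810 probe sets 64 controls were left out, and 11967 with a mean signal of at least 30 were analysed as log2(signal + 16), a scale that understates changes of dim probe sets. No arrays held identical values.

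Differences were tested with limma 3.58.1 in R 4.3.3: 1 fit over 18 arrays with the 6 title runs as groups, moderated variances with a trend, and Benjamini-Hochberg adjustment over all probe sets at a threshold of 0.05. Replicate numbers were tested by an F-test in a model of run plus number. The fit was tested on simulated data. Tables and plots used Python 3.11.15, pandas 2.3.3 and matplotlib 3.10.9. The number of arrays limits the precision.

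Of the probe sets tested, 6357 had 1 gene in the platform's annotation (6340 matched to a locus of TAIR10.1 through gene identifiers), 247 had several and 5363 are unnamed here. The 2 probe sets just outside each limit, the listed genes and, had any been named, the members with the most extreme differences were to be named. The members, limits and lists were chosen with earlier results of these data known. Values of the 387 probe sets past the first limit were added after the rule was found to leave 1 member. Same-numbered arrays of the third pair deviated together across probe sets (correlations of 0.67, 0.55 and 0.53 for numbers 1, 2 and 3), as did those of the first (0.39, 0.18 and 0.54). In the second pair the correlations were 0.37, 0.00 and -0.11, and SA replicate 3 deviated more with silwet replicate 2 (0.38). The alternatives tried were log offsets of 1 or 64, quantile-normalized signals, no filter, a mean signal of at least 60, the replicate block, no variance trend, array weights, only the 6 arrays of the third pair, and each replicate number left out.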

Additional observations from a re-analysis of the deposited data

Results flagged for a closer look

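For ERDJ3B (251182_at) the 3 SA arrays lay all above the silwet arrays in the first pair and all below them in the second, with differences of 0.94 and -0.70. For UGT73B5 (265499_at) the order of the groups reversed in the same way, with differences of 0.70 and -0.39. UGT73B5 was dim, however, with a mean signal of 36.1 against 813 for ERDJ3B. Its second-pair levels were low in both groups, from 5.02 to 5.21 with SA against 5.36 to 5.68 with silwet. Dim probe sets vary most, so the second-pair separation of UGT73B5 carries less weight than that of ERDJ3B. The change between the pairs was not tested for either gene. Over all 11967 probe sets, 267 (2.23%) had groups that separated upwards in the first pair and downwards in the second.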

How the results depend on the processing

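The number of members depended on the processing. The rule picked 6 probe sets at an offset of 1, 0 at an offset of 64 and 2 after quantile normalization, and from 2 to 12 when a replicate number was left out. It picked 1, the same probe set, at a mean signal of at least 60. Named probe sets that entered under some setting were Hsp70-2 in 3, UGT73D1 in 2, and AT5G01210, AT5G17760, CCOAMT and WES1, a gene of auxin conjugation also known as GH3.5, in 1 each. The third-pair difference of 248163_at stayed between -0.13 and 0.12 over 12 other settings, and turned to -0.13 without replicate 3, with adjusted p from 0.939 to 1.0. With the replicate block it was 0.02, with an adjusted p of 0.981, and the block changed no call. The count of probe sets that passed in the third pair was 0 in each setting, with 265 to 1595 at an unadjusted p under 0.05 and 1282 with the block. The F-test of replicate numbers at 248163_at passed in none of 6 other settings. Among the 387 probe sets past the first limit, array weights called 2 lower in the second pair, and the other settings called 0. With 3 arrays per run and a standard error of 0.32, a difference near the rule's second limit of 0.4 could not be told from 0 for 248163_at.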
